A study of Rattus norvegicus with 6 samples.

Results

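Dermatopontin (Dpt) and 7 small leucine-rich repeat proteoglycans, decorin (Dcn), lumican (Lum), biglycan (Bgn), fibromodulin (Fmod), osteoglycin (Ogn), asporin (Aspn) and Prelp, were examined in the endosalpinx, the mucosa of the rat oviduct. The 8 genes were taken by symbol from the 14506 genes that the array annotation names singly, and each was measured by 1 probe set. The set was chosen by the lower mean signals of Dpt and Dcn in mated than in unmated rats, to which their relatives were added by name, so the comparison of mated with unmated rats is given for all 8 genes as a description and without a test. The arrays came from 6 adult Sprague-Dawley females of up to 280 g, with 1 array for each rat. The 3 mated rats joined fertile males on the evening of pro-estrus, at 2200 h, had sperm or a plug in the vagina when checked 30 min later, and stayed with the males. They were killed 3 h after mating, at 0130 h on the day of estrus, and the labels also record semen in their uteri. The 3 unmated rats were kept alone and killed at the same hour, with edema of the uterus on record. Company of a male and handling differed along with mating, so their effects cannot be told apart, and the labels name no drug, genotype or surgery in either group.

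Small leucine-rich proteoglycans are secreted by fibroblasts and other stromal cells and bind to the surface of collagen fibrils, where they set fibril spacing and thickness. Several of them also hold growth factors of the TGF-beta family. Dermatopontin has no leucine-rich repeats; it is a small tyrosine-rich matrix protein that binds decorin and takes part in collagen fibril assembly. The mucosa of the oviduct holds epithelium and connective tissue, and the arrays do not show which of its cells held these transcripts.

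Promoter sequences of RefSeq (rat assembly GRCr8) were found for 5 of the 8 genes, Dpt, Lum, Fmod, Ogn and Aspn. Those of Dpt, whose groups did not overlap, and of Lum, Ogn and Aspn, which were all lowest in the same unmated rat, are shown from 250 bases before to 50 bases after the gene start, on the strand of the gene. That of Fmod, also lowest in that rat, is not shown. Capitals mark matches on either strand to TATAAA (the core of the TATA box) or GGAATG (the element of TEAD factors).
Dpt, chr13:79656091-79656390, plus strand: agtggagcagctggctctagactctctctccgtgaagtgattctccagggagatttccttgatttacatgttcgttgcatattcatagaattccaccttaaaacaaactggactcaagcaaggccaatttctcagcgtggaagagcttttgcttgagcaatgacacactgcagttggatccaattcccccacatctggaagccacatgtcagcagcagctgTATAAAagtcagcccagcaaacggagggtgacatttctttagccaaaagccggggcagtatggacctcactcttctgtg
Lum, chr7:34245456-34245755, plus strand: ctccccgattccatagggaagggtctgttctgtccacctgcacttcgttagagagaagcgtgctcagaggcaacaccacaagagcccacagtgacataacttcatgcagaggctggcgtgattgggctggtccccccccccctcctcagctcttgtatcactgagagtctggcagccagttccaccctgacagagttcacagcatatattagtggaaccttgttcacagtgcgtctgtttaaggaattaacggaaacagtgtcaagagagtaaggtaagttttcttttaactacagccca
Ogn, chr17:15258946-15259245, minus strand: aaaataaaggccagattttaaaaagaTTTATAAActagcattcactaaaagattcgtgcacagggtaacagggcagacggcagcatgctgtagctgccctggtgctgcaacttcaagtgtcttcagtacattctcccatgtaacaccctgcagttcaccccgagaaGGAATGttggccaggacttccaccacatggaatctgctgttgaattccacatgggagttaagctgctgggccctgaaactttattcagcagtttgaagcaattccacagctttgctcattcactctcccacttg
Aspn, chr17:15310420-15310719, minus strand: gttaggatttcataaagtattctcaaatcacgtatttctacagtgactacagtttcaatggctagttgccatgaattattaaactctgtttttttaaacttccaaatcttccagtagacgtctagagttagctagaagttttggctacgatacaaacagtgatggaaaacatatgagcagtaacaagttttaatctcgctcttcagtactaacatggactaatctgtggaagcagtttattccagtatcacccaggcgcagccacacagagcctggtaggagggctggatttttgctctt
The Dpt promoter holds TATAAA 29 bases before the gene start. The Ogn promoter holds overlapping matches to it at 224 and 222 bases before the start, and GGAATG at 84. Lum and Aspn hold neither motif in this window. Of 33469 rat promoters of this length 14.2% hold TATAAA and 14.2% hold GGAATG. The other motifs searched, on both strands, were the GC box GGGCGG, present in Fmod alone among the 5 and in 33.1% of all promoters, and the AP-1 element TGANTCA, present in none of the 5 and in 7.33% of all.

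All values are log2 signals as deposited. The array medians lay between 7.89 and 7.94. As a guide to background served 1256 odorant and pheromone receptor genes, which are used mainly by sensory neurons; 95% of them had a mean of at most 7.13, and 71.1% of all genes lay above that limit. The means of Dpt (7.22) and Fmod (7.14) were just above it, those of Dcn (7.45), Ogn (7.75), Bgn (7.84) and Prelp (9.38) were higher, and Lum (5.00) and Aspn (5.22) lay within the receptor range. Signals of different probe sets do not rank the genes by transcript number. The limma fit over all 14506 genes called 0 (0.0%) at an adjusted p under 0.05, with 663 genes (4.57%) at an unadjusted p under 0.05, and its smallest adjusted p was 0.984 by limma. In whole tissue, fewer cells that express a gene and less of its RNA per cell cannot be told apart.

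Dpt and Prelp were the 2 genes of the 8 whose groups did not overlap, both lower in mated rats. Dpt had log2 signals of 6.86, 7.17 and 6.94 in the mated rats, against 7.38, 7.58 and 7.38 in the unmated rats. Every mated value lay below every unmated one, with 0.21 between the nearest arrays. Its mean was 6.99 ± 0.16 in mated and 7.45 ± 0.12 in unmated rats (SD, n = 3 each), a log2 difference of -0.46, or 0.729 times the unmated signal. The mated mean and mated replicates 1 and 3 lay below the receptor limit of 7.13, where RMA compresses differences. Prelp encodes a proteoglycan-like protein that links basement membrane perlecan to collagen. It had 9.07, 9.36 and 9.21 in the mated rats, against 9.38, 9.71 and 9.57 in the unmated rats. The groups were apart by only 0.02, between mated replicate 2 and unmated replicate 1. The Prelp mean was 9.21 ± 0.15 in mated and 9.55 ± 0.17 in unmated rats (SD, n = 3 each), a log2 difference of -0.34. For both genes the difference exceeded the SD of either group. Among all genes 3.23% had groups that did not overlap with the mated rats lower and 5.24% with the mated rats higher, and since Dpt was picked for this contrast nothing is read from the count of 2.

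Dcn and Lum also had lower means in mated rats, but their groups overlapped. Decorin binds collagen and TGF-beta through a core protein that carries a dermatan or chondroitin sulfate chain. Dcn had log2 signals of 7.39, 7.22 and 7.21 in the mated rats, against 8.0, 7.79 and 7.08 in the unmated rats. Unmated replicates 1 and 2 lay above all mated rats and unmated replicate 3 lay below them. The Dcn mean was 7.27 ± 0.10 in mated and 7.62 ± 0.48 in unmated rats (SD, n = 3 each), and the log2 difference of -0.35 was smaller than the SD of the unmated rats. Lumican is a keratan sulfate proteoglycan of collagen fibrils. Lum had 4.68, 4.82 and 5.05 in the mated rats, against 5.26, 5.59 and 4.59 in the unmated rats, all within the receptor range. The same unmated rat was again the lowest of the 6. The Lum mean was 4.85 ± 0.19 in mated and 5.15 ± 0.51 in unmated rats (SD, n = 3 each), a log2 difference of -0.30 that was also smaller than the unmated SD.

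**Figure D1:**
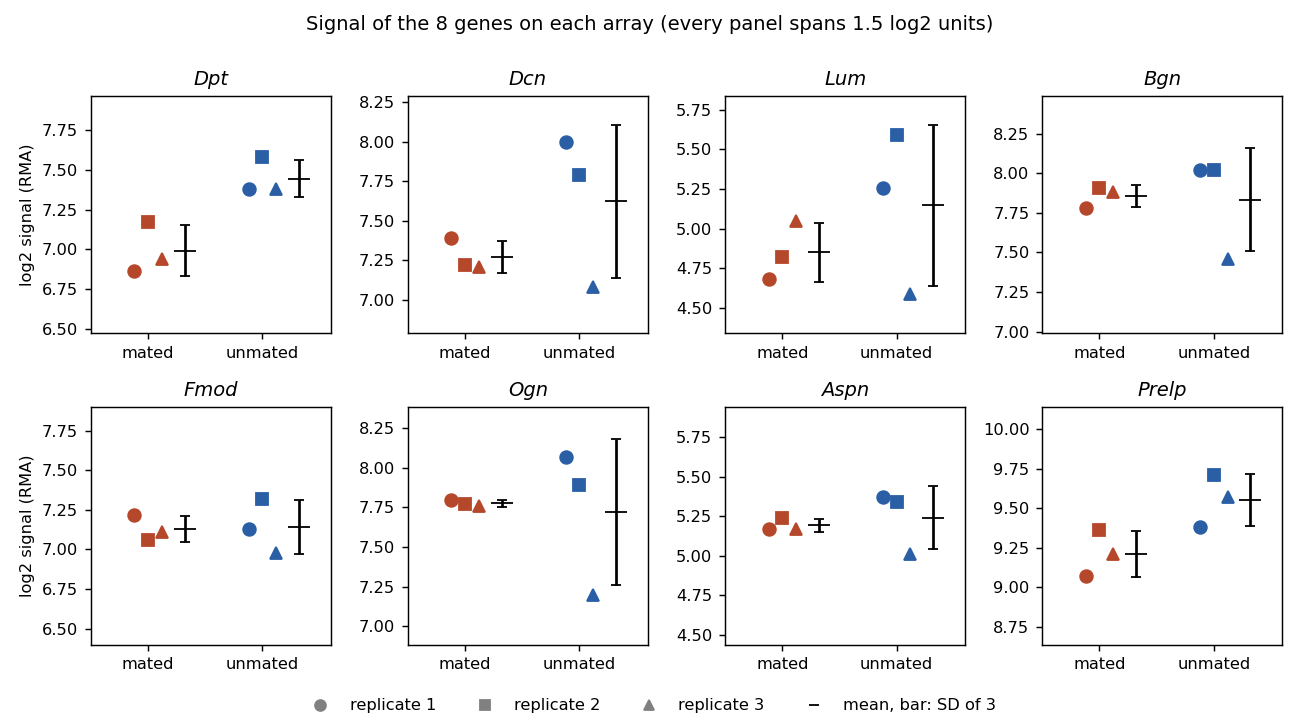
Log2 signal of each of the 8 genes (vertical axes, each spanning 1.5 log2 units) in mated and unmated rats; points are single arrays, with the marker giving the replicate, and the black bars are the mean and SD of 3. Dpt and Prelp separate the groups, while unmated replicate 3 (blue triangle) is the lowest array for the other 6 genes.

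The other 4 genes had nearly equal means in the groups. Biglycan, the closest relative of decorin, can also signal through Toll-like receptors once released from the matrix. Bgn had log2 signals of 7.78, 7.91 and 7.88 in the mated rats, against 8.02, 8.02 and 7.46 in the unmated rats. Its means were 7.86 ± 0.07 in mated and 7.83 ± 0.32 in unmated rats (SD, n = 3 each), a log2 difference of 0.02 (95% interval of the fit -0.32 to 0.37). Ogn, also called mimecan, had 7.80, 7.77 and 7.76 in the mated rats, against 8.07, 7.89 and 7.20 in the unmated rats. The mated rats were within 0.04 of each other and the unmated rats were spread over 0.87, on both sides of them. The Ogn difference was 0.06 (-0.40 to 0.51). Asporin, which binds collagen and TGF-beta, had Aspn signals of 5.17, 5.24 and 5.17 in the mated rats, against 5.37, 5.34 and 5.01 in the unmated rats. Its difference was -0.05 (-0.29 to 0.19), within the receptor range. Fibromodulin is a keratan sulfate proteoglycan that guides collagen cross-linking. Fmod had 7.22, 7.06 and 7.11 in the mated rats, against 7.13, 7.32 and 6.98 in the unmated rats, a difference of -0.01 (-0.24 to 0.21). The intervals of these 4 genes overlapped that of Dpt (-0.69 to -0.22), and whether they differ from Dpt was not tested.

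Among the 8 genes, 6 had a lower mean in mated rats, with a median log2 difference of -0.17, beside 45.5% of all genes and a median over all genes of 0.01. Dpt, Dcn, Prelp and Lum had differences from -0.46 to -0.30, while Aspn, Fmod, Bgn and Ogn lay between -0.05 and 0.06. The count and the median include the genes the set was drawn up for.

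**Figure D2:**
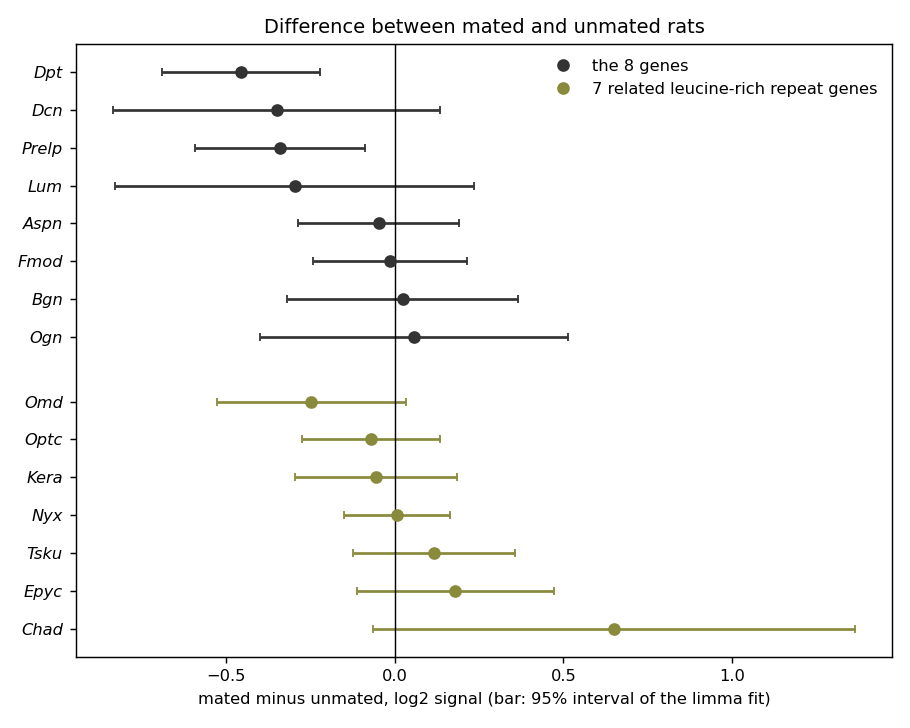
Mated minus unmated log2 signal with the 95% interval of the limma fit (horizontal axis) for the 8 genes (dark) and 7 related leucine-rich repeat genes (olive). The intervals of the 8 genes are a description, since this contrast chose the set; Dpt, Dcn, Prelp and Lum lie between -0.46 and -0.30, the other 4 of the set lie near 0, and Chad has the largest value, 0.65, with an interval that includes 0.

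In most of the 8 genes, though not over all genes, the unmated rats differed among themselves more than the mated rats did. In 7 of the 8 genes the SD was larger in unmated than in mated rats, against 43.1% of all genes; the exception was Dpt, at 0.16 in mated and 0.12 in unmated rats. The unmated SDs of Lum, Dcn, Ogn and Bgn were larger than those of 99.4%, 99.3%, 99.1% and 97.1% of all genes. Unmated replicate 3 was the lowest of the 6 arrays for 6 of the 8 genes, namely Dcn, Lum, Bgn, Fmod, Ogn and Aspn. Over all genes it was the lowest in 16.4%. Its Dpt and Prelp signals were not low, at 7.38 and 9.57. The mean over the 8 genes was 6.996, 7.07 and 7.04 on the mated arrays, against 7.33, 7.41 and 6.91 on the unmated arrays.

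Across the 6 arrays the genes followed 2 patterns, described after the values were seen. Dpt and Prelp went together, with Pearson r = 0.95 and Spearman rho = 0.99, and r = 0.88 after removal of the group means. Dcn, Lum, Bgn, Ogn and Aspn formed the other set, with r from 0.67 to 0.95 in their 10 pairs, and from 0.56 to 0.95 without unmated replicate 3. Fmod, also lowest in that rat, had r from 0.62 to 0.69 with these 5 genes, but from 0.17 to 0.54 without it. The order of the 6 arrays was the same for Dcn and Ogn, with rho = 1.00 and r = 0.78. Dpt or Prelp paired with the remaining 6 genes gave r from -0.22 to 0.56. That gap between the patterns rests on unmated replicate 3, for without it the same pairs gave r from 0.38 to 0.94. These correlations rest on 6 arrays that share group and normalization and carry no p. Without the 2 arrays farthest from the median of its first gene, r was 0.86 for Dpt with Prelp, 0.80 for Dcn with Ogn and 0.09 for Dcn with Lum.

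**Figure D3:**
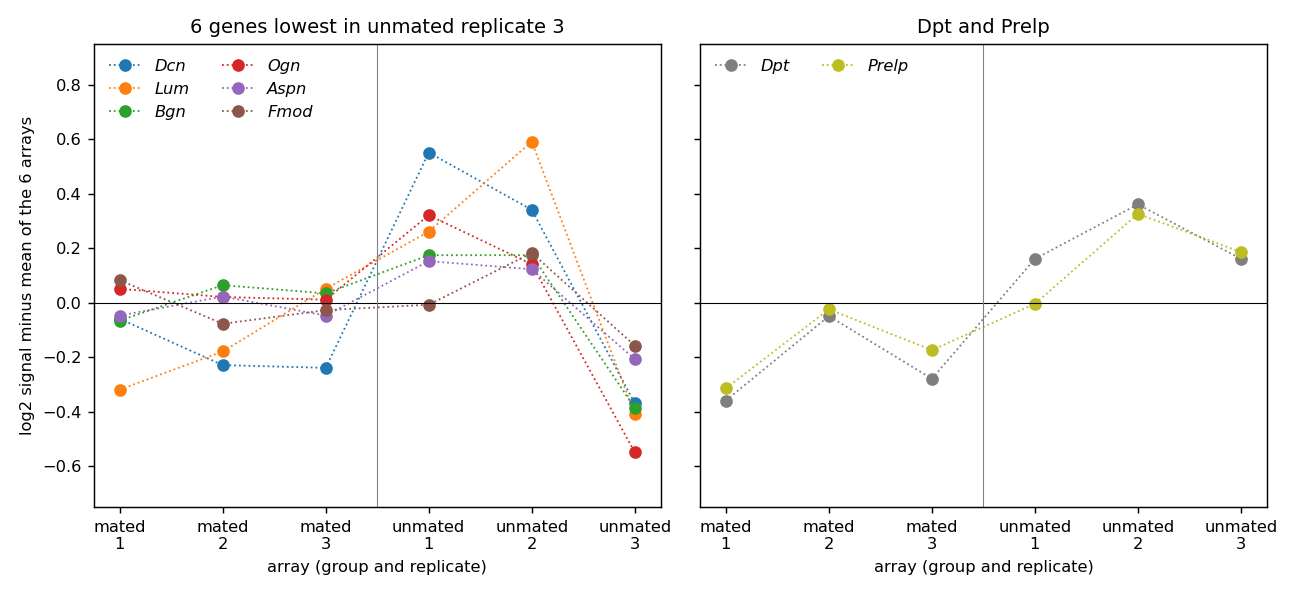
Log2 signal of each gene minus its mean over the 6 arrays (vertical axis) on each array, mated arrays left of the grey line and unmated arrays right of it; dotted lines only join the points of 1 gene. The 6 genes on the left dip at unmated replicate 3, where Dpt and Prelp on the right stay above all mated arrays.

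How many of the 8 genes had lower means depended on single unmated rats. Without unmated replicate 3 all 8 genes had a lower mean in mated rats, beside 47.0% of all genes. The median log2 difference was -0.27, against 0.01 over all genes. That array was the lowest for 6 of the 8 genes, so its removal had to lower their differences. Nothing is therefore read from the count of 8. Without that array Dcn differed by -0.62, Lum by -0.575, Ogn by -0.20, Bgn and Aspn both by -0.16 and Fmod by -0.095. Without unmated replicate 2 the count was 4 of 8 and the median -0.04, and without unmated replicate 1 it was 5 of 8 and -0.09. Dpt stayed between -0.55 and -0.39 and Prelp between -0.43 and -0.26 whichever array was left out, and Dcn between -0.62 and -0.16. The sign could not change for Dpt and Prelp, since their groups did not overlap. Lum ranged from -0.575 to -0.075, the last without unmated replicate 2. The direction of Bgn, Fmod, Ogn and Aspn changed with the array removed.

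**Figure D4:**
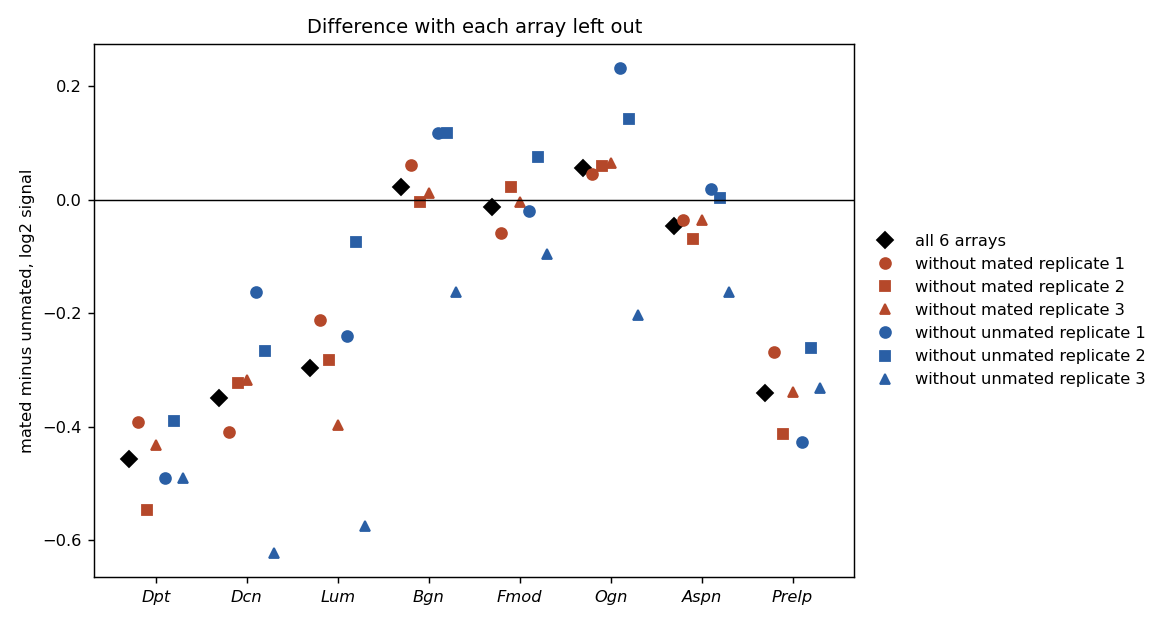
Mated minus unmated log2 signal (vertical axis) of each gene from all 6 arrays (black diamond) and with each array left out in turn (red, a mated array; blue, an unmated array; marker, the replicate). Dpt, Dcn, Lum and Prelp stay below 0 throughout, and Bgn, Fmod, Ogn and Aspn are found on both sides of 0. For Dpt and Prelp, whose groups do not overlap, the sign could not change.

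Most of these genes stand in clusters of relatives in GRCr8. Dcn, Lum, Kera and Epyc follow each other on chromosome 7, Optc, Prelp and Fmod on chromosome 13, and Ogn, Omd and Aspn on chromosome 17. Bgn is on chromosome X, and Dpt is on chromosome 13 away from the cluster there. Neighbours did not always share a pattern. Prelp was lower in mated rats by 0.34 on the log2 scale without overlap, while the adjacent Fmod differed by -0.01. Dcn and Lum shared the low unmated replicate 3, whereas Kera, the next gene, which encodes the corneal proteoglycan keratocan, was highest there, at 4.76, 4.99 and 4.97 in the mated rats, against 4.99, 4.79 and 5.11 in the unmated rats. Omd, osteomodulin, lies between Ogn and Aspn and had 5.10, 4.91 and 4.67 in the mated rats, against 5.25, 4.98 and 5.19 in the unmated rats. Kera and Omd lay within the receptor range.

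Of 11 further leucine-rich repeat genes of the matrix 7 were measured, of which 3 had a lower and 4 a higher mean in mated rats, with a median log2 difference of 0.01. None passed the test (limma, adjusted p over all genes), and 0 of 7 had an unadjusted p under 0.05, beside 4.57% of all genes. Chad, which encodes the collagen-binding chondroadherin, had the largest difference, and unmated replicates 1 and 2, the highest for Dcn, were its lowest arrays. It had 10.18, 10.25 and 10.85 in the mated rats, against 9.45, 9.36 and 10.52 in the unmated rats. Unmated replicate 3 lay among the mated rats, and the difference of 0.65 had a 95% interval from -0.06 to 1.36 (adjusted p = 0.984 by limma). Epyc, epiphycan, differed by 0.18, Tsku, a secreted modulator of BMP and Wnt signals, by 0.12, Nyx, nyctalopin of the retina, by 0.01, and Optc, opticin of the vitreous, by -0.07. Epyc lay within the receptor range.

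Of 23 measured enzymes that build the sugar chains of these proteins 0 were past the adjusted threshold and 10 had a lower mean in mated rats (median log2 difference 0.02). Chst14, the sulfotransferase specific to dermatan sulfate, the chain of decorin, had 7.60, 7.80 and 7.65 in the mated rats, against 8.01, 7.87 and 7.92 in the unmated rats. These groups did not overlap, and the difference of -0.25 (95% interval -0.43 to -0.07) did not pass (adjusted p = 0.984 by limma). B3gnt7, which extends keratan sulfate, had 10.38, 10.52 and 10.61 in the mated rats, against 10.67, 10.72 and 10.67 in the unmated rats, a difference of -0.18 without overlap. Chst14 and B3gnt7 were named for having the 2 lowest differences of the 23. Among all genes 3.23% had groups that did not overlap with the mated rats lower. Csgalnact1, which starts chondroitin chains, differed by 0.25 and Chst5, a sulfotransferase of keratan sulfate, by 0.17, both with overlap.

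Collagens and other fibril partners had a median difference near 0, though some had wide intervals. Of 24 measured, 13 had a lower mean in mated rats, with a median log2 difference of -0.005 and 0 past the test. Col6a1, Col6a2, Col6a3, Tnxb and Tnc were listed but not measured. Fn1, fibronectin, differed by 0.04 (95% interval -0.97 to 1.05) and Thbs1 by -0.06 (-0.68 to 0.55), so larger differences in either direction are not excluded. Col1a1 and Col3a1, the main fibrillar collagens to which decorin binds, were chosen after their values were seen and differed by -0.02 (95% interval -0.32 to 0.29) and -0.01 (-0.27 to 0.26). The largest differences were 0.17 for Mfap5 and 0.12 for Mfap2, both microfibril proteins and the second within the receptor range, and -0.16 for Fbn1, fibrillin, and -0.11 for Fbln2, a fibulin. The Fbln2 value rested on unmated replicate 1, which stood high at 10.30 beside 9.13 and 8.99 in the other unmated rats, and was 0.30 without that array. Of 14 proteases and enhancers that process or degrade these proteins, 9 had a lower mean in mated rats, and 0 passed. Mmp12, macrophage elastase, had 7.55, 7.51 and 7.59 in the mated rats, against 7.16, 7.13 and 7.21 in the unmated rats, a difference of 0.38 (0.23 to 0.53; adjusted p = 0.984 by limma). Mmp9 differed by 0.14 within the receptor range, Adamts9 by -0.11 and Htra1 by -0.10.

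Growth factors and receptors bound by the family gave 8 lower and 12 higher means among 20 measured, with a median log2 difference of 0.04 and 0 past the test. Bmp2, a growth factor that asporin binds, had 6.48, 6.11 and 6.14 in the mated rats, against 5.59, 5.99 and 5.94 in the unmated rats, all within the receptor range. Its difference was 0.40, and that of Ccn2, connective tissue growth factor, a binding partner of decorin, was 0.37. The lowest were Bmp4 at -0.14 and Kdr, a VEGF receptor, at -0.12.

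The 6 genes most like Dpt across the 6 arrays, among 10232 named genes above the receptor range, were Tpgs1, Rhoj, Pigt, Mfn1, Dnajc25 and Lpin1, with r from 0.97 for Lpin1 to 0.99 for Tpgs1. The differences between mated and unmated rats in these genes were smaller than in Dpt, from -0.25 for Rhoj to -0.06 for Tpgs1. Their lower means in mated rats follow from the choice by likeness to Dpt over the same arrays. Tpgs1 spanned only 9.25 to 9.34, little more than the rounding of the values. The 6 most like Dcn were Ryr3, Slc7a9, Dffb, Gemin5, Vil1 and Stat5a, with r from 0.97 to 0.99. Ryr3, an intracellular calcium channel, had 8.35, 8.11 and 8.25 in the mated rats, against 9.02, 8.73 and 8.12 in the unmated rats. An r above 0.9 was reached by 57 genes (0.557%) for Dpt and 97 (0.948%) for Dcn, and with 6 arrays these likenesses are only descriptions.

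Markers of stromal cells had small negative median differences, as did those of macrophages and ciliated epithelium, given below. The genes named were chosen after their values were seen. Of 21 fibroblast markers outside the set 15 had a lower mean in mated rats, beside 45.5% of all genes. The median log2 difference over the 21 was -0.05, and 6 of them lay within the receptor range. The mean over these markers was 7.86 to 8.04 on the mated arrays, against 7.93 to 8.12 on the unmated arrays. Unmated replicate 3 was lowest in 5 of the 21, beside 16.4% of all genes. Cd34, also a marker of endothelium, had 7.24, 7.12 and 7.32 in the mated rats, against 8.41, 7.41 and 7.17 in the unmated rats, where 1 array stood high. C7 differed by -0.26, within the receptor range, while Serpinf1 and Vim differed by 0.29 and 0.23. Among 9 smooth muscle markers 6 had a lower mean in mated rats, beside 45.5% of all genes, with a median log2 difference of -0.03. Unmated replicate 3 was lowest in 4 of the 9, beside 16.4% of all genes. The mean over the smooth muscle markers was 7.91 to 8.12 on the mated arrays, against 8.09, 8.20 and 7.92 on the unmated arrays. Myh11, the smooth muscle myosin, had 8.79, 9.15 and 9.01 in the mated rats, against 9.31, 9.32 and 8.71 in the unmated rats. The part of stromal or muscle cell content in the differences of the 8 genes was not tested.

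For the markers of other cell types the median differences lay between -0.09 and 0.08. The median log2 difference was -0.04 over 11 macrophage, 0.01 over 9 endothelial, 0.03 over 5 mesothelial and 0.06 over 6 adipocyte markers. The endothelial markers went both ways, with 4 of 9 at an unadjusted p of limma under 0.05, beside 4.57% of all genes. Past the adjusted threshold of limma were 0. Among the endothelial markers Tie1 and Esam differed by 0.33 and 0.25 without overlap, beside 5.24% of all genes with the mated rats higher. Tek differed by -0.29 without overlap, beside 3.23% with the mated rats lower, and Emcn by -0.22. Tek and Emcn lay within the receptor range. The median was 0.08 over 9 markers of secretory epithelium, of which none lay within the receptor range. It was -0.09 over 10 markers of ciliated epithelium, of which 9 had a lower mean in mated rats, beside 45.5% of all genes. The mean over the ciliated markers was 10.76, 10.52 and 10.48 on the mated arrays, against 10.55, 10.73 and 10.65 on the unmated arrays. Unmated replicate 3 was the lowest array for 0 of these 19 epithelial markers. It was the lowest for 2 of 5 mesothelial, 2 of 11 macrophage, 1 of 9 endothelial and 0 of 6 adipocyte markers, beside 16.4% of all genes. Krt8, a keratin of simple epithelia, was bright in both groups, at 13.02, 12.92 and 13.11 in the mated rats, against 12.93, 12.83 and 13.00 in the unmated rats.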

How the data were processed

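RNA from the endosalpinx of 6 rats was measured on Affymetrix arrays from 0.3 µg of total RNA per rat, per the labels' protocols. The authors deposited log2 signals, made with RMA (background correction, quantile normalization, probe set summary) and Affymetrix Expression Console, per the submitters' processing notes; versions and genome build are not given in the sources used here. RMA would hide a shift of most transcripts and compresses changes of dim ones.

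Of 29214 probe sets, 15310 had 1 gene symbol, 323 several and 13581 none listed; the brightest probe set per gene left 14506 genes. Of those with 1 symbol 15279 matched RefSeq (GRCr8) by Entrez identifier. The comparison of mated with unmated rats used limma 3.58.1 in R 4.3.3 (lmFit, eBayes, no covariate), two-sided, with Benjamini-Hochberg adjustment over all genes and a threshold of 0.05; the procedure was tested on simulated data. The number of arrays limits the precision, and the median 95% interval reached 0.20 log2 units to either side. Alternatives were an intensity trend or robust estimate of the spread, a replicate block, weighted arrays, other scalings, filters on dim genes, other choices of probe sets and the removal of each array. Equal replicate numbers did not pair the rats.

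The 8 genes and all gene lists were chosen with earlier results of these data known. Named were the 8 genes, the measured relatives, from each other list the 2 highest and 2 lowest differences, and the 6 genes most like Dpt and most like Dcn by Pearson r; other names, such as cell type markers, were picked once values were known. List genes with no probe set of their own symbol are not analysed here.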

Additional observations from a re-analysis of the deposited data

How the results depend on the processing

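The count of genes past the adjusted threshold was 0 under each of the 16 alternatives. The smallest adjusted p of limma ranged from 0.104 without mated replicate 1 to 0.998 without unmated replicate 2, and genes at an unadjusted p under 0.05 numbered from 262 with the dimmest 50% left out to 1403 without mated replicate 1. The number of the 8 genes with a lower mean in mated rats was 6 under a second quantile normalization and median centring, 8 with array weights, and 4 to 8 when 1 array was left out. Their median difference ranged from -0.27 to -0.04 when 1 array was left out. A balanced replicate block and the mean of all probe sets could not change either value, since each of the 8 genes has 1 probe set. The filters on dim genes removed some of the 8 genes, so neither value was computed there. With the replicate block 0 genes were called, and 672 had an unadjusted p under 0.05; deviations of equally numbered rats correlated at 0.00, -0.08 and 0.07, so the numbers are not taken to pair the rats. Signals close to background limit Lum and Aspn, which lie within the receptor range, and Dpt and Fmod, just above it; RMA compresses differences there.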
